A study of Mus musculus with 2 samples.

Results

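The genes described here are 33 genes of cholesterol synthesis, its control, fatty acid synthesis and cholesterol export. They were chosen by name, and each was read from every probe set that the platform annotation assigns to that 1 gene symbol. Of the 33, 32 were found, on 77 probe sets, among 18193 genes on 34945 probe sets. The 33rd, Nr1h2, matched no such probe set and was not analysed here. RNA was compared between 2 preparations, each on its own Affymetrix MOE430 2.0 array. The labels call them naïve CD44- gamma/delta T cells and naïve CD8+ alpha/beta T cells, and both were isolated by negative selection from lymph nodes of C57BL/6 mice. No treatment, genetic change, age or number of pooled mice is given for either preparation, and the study as titled concerns the kinase Blk and IL-17-producing gamma/delta T cells. With 1 array per group there was no replicate, so that every ratio compares these 2 preparations and carries no standard error and no p-value.

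Cholesterol is built from acetyl-CoA through mevalonate, isoprenoid diphosphates and squalene, and the same acetyl-CoA feeds fatty acid synthesis through malonyl-CoA. The SREBP transcription factors switch on both branches when sterols are scarce. SCAP carries the SREBP precursors out of the endoplasmic reticulum, and the INSIG proteins hold them back when sterols are plentiful. The liver X receptors (LXR) respond to oxysterols when cholesterol is plentiful and induce its exporters, such as ABCA1 and ABCG1, as well as Srebf1 and lipogenic genes. Resting T cells keep synthesis low and raise it on activation, and sterol intermediates are known to bind RORgammat, the receptor that directs IL-17 production.

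The values were MAS5 signals, on a linear scale, in units that set both arrays to one overall level. Signals under 243.3, the higher of the medians of the arrays, were raised to that floor before the gamma/delta signal was divided by the alpha/beta signal. Where 1 of the arrays lay under the floor the result is a bound, written "at least", and where both did no ratio was formed. A gene was read from its brightest probe set and was called at a difference of 2-fold or more, a log2 ratio of at least 1 in size. The spread between probe sets of one gene on these arrays, the only spread at hand, had a pooled SD of 0.50 on the log2 scale over 3317 genes and 0.30 over 9 of the members. Actin gave a 3′ to 5′ signal ratio of 6.99 for gamma/delta and 3.12 for alpha/beta cells, a measure of RNA integrity, while Gapdh gave 3.06 and 3.24. The part of RNA integrity in the differences between the arrays was not tested.

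The identity of the preparations was read from marker genes. All 4 T cell markers measured were well above the floor on both arrays. The T cell receptor complex chains Cd3d and Cd3e read 13550 and 59573 in gamma/delta against 13862 and 34224 in alpha/beta cells. Cd3g, at 8062 against 3486, and Thy1, at 5861 against 2724, were called higher in gamma/delta cells, and the median log2 ratio of the list was 0.95. All 4 gamma/delta lineage markers measured were called higher in gamma/delta cells, and both CD8 chains were called lower there. Cd4 was below the floor in both preparations. Cells that make or store much lipid could carry these transcripts too, and the markers of adipocytes and macrophages were weak. Of 4 adipocyte markers measured, Adipoq, Cidec and Lep were below the floor in both preparations, and Fabp4 read 242.2 in gamma/delta against 402.6 in alpha/beta cells. Their summed signal was 423.9 and 563.9. Of 5 macrophage and monocyte markers, 3 were below it in both, and none exceeded a signal of 284.6, with sums of 953.7 and 680.9. Of 4 B cell markers measured, Ms4a1 read 858.2 and 616.0, and Cd79b read 254.2 and 187.6. Cd79a and Pax5 were below the floor in both preparations, and the sums were 1260 and 1150. Of 3 stromal markers measured, Col1a1 read 512.3 and 530.7, above the floor and nearly equal, and Col3a1 read 298.9 and 523.1. Pdgfrb was below the floor in both, and the sums were 866.5 and 1128. In such bulk RNA, fewer cells of a type and less RNA per cell cannot be told apart.

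Across the 32 genes, 29 had a ratio, and 3 differed by 2-fold or more. Among all 11914 genes with a ratio 9.74% did. Idi1 and Dhcr7 were higher in gamma/delta cells, where 5.82% of all genes were called, and Abcg1 was lower, where 3.93% were. Mvd, Scd1 and Fads2 had no signal above the floor in either preparation, as had 34.5% of all genes. The median log2 ratio of the 29 was -0.21, beside 0.035 over all genes. Of the 29, 17 were below 0, beside 47.6% of all genes. The share of members called thus lay close to that of all genes.

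**Figure D1:**
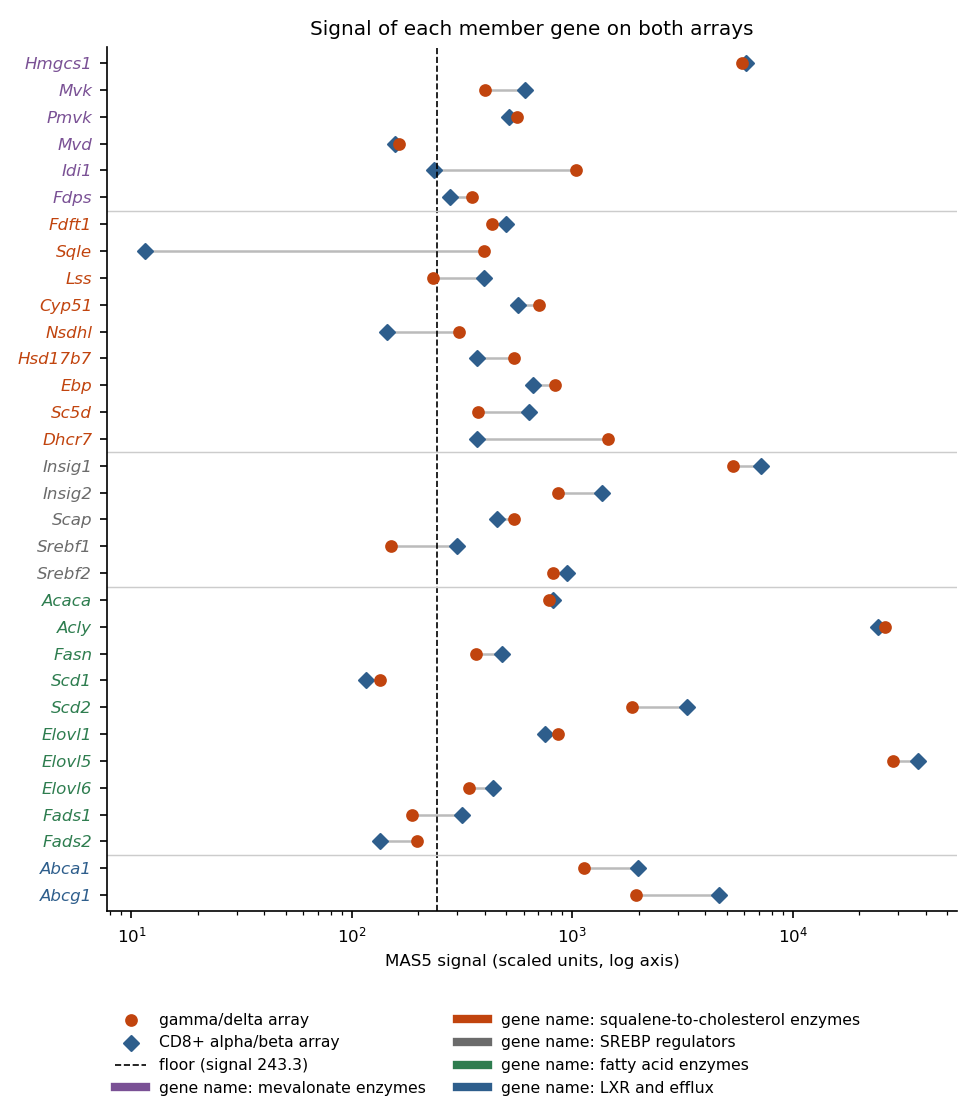
MAS5 signal (log axis, scaled units) of the 32 measured genes in gamma/delta (circles) and CD8+ alpha/beta cells (diamonds), from the brightest probe set of each gene; the dashed line is the floor of 243.3. Idi1, Dhcr7 and Sqle show the widest gaps towards gamma/delta and Abcg1 the widest towards alpha/beta among genes above the floor on at least 1 array.

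Promoter sequences are shown for the 2 genes called higher, Idi1 and Dhcr7, for Hmgcs1, which was alike on both arrays, and for the exporter Abca1, which read lower in gamma/delta cells. Each stretch is the 150 bases before a transcription start, 5′ to 3′ along the gene, from RefSeq on assembly GRCm38.p6. Capitals mark CCAAT, the box bound by NF-Y, GGGCGG, the box bound by Sp1, and TCACNCCAC, a sterol regulatory element to which SREBP binds, each on either strand.
Hmgcs1, chr13:119690201-119690350, plus strand: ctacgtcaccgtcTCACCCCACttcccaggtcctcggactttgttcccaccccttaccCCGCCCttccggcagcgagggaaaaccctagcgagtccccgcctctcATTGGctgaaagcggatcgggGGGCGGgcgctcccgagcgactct
Idi1, chr13:8885456-8885605, plus strand: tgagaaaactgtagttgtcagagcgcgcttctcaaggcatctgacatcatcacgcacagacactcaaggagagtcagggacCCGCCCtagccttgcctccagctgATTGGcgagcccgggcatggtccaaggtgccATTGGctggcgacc
Dhcr7, chr7:143830064-143830213, plus strand: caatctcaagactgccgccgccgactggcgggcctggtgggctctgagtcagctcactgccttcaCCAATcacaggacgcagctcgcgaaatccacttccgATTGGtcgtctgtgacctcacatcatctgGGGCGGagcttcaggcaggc
Abca1, chr4:53159896-53160045, minus strand: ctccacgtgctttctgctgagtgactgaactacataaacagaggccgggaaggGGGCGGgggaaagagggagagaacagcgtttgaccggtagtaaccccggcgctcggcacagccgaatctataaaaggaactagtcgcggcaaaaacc
RefSeq lists 3 starts for Dhcr7, and the stretch shown is that with CCAAT boxes.

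NF-Y and Sp1 act beside SREBP at sterol genes, and both boxes were frequent in these windows. Windows of 300 bases (250 before to 50 after a start) were listed for 26 of the 33 genes, and Fdps, Fdft1, Sqle, Scd1, Scd2, Fads1 and Abcg1 had none. CCAAT on either strand was found in 12 of 12 sterol enzyme genes with a window, against 42% of 14452 genes on the array. Of 7 fatty acid enzyme genes with a window, 4 held it. GGGCGG was found in 11 of the 12 sterol enzyme genes and in 3 of the 7 fatty acid enzyme genes, against 57.3% of genes on the array. The element TCACNCCAC was found in Hmgcs1 alone among the 26, against 1.46% of genes on the array. The LXR direct repeat, AGGTCA and again AGGTCA after NNNN, was found in none of the 26 and in 0.00692% of genes on the array. Only exact matches were searched. Repeats that differ from it in a base were not looked for, in Abca1 or elsewhere, so its absence does not show that LXR has no site there. None of the motifs contains another, and a match describes the window only. Hmgcs1, Idi1 and Dhcr7 all held CCAAT and GGGCGG, and so did Sc5d, which read lower in gamma/delta cells.

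The mevalonate enzymes, which turn acetyl-CoA into isoprenoid units, stood on both sides of 0. Of 6 genes 5 had a ratio, 1 was called higher and 0 lower, and the median log2 ratio was 0.12, from -0.60 to at least 2.09. Medians here and below take bounds at their value. Idi1, the isomerase that interconverts the 2 isoprenoid building blocks, read 1033 in gamma/delta against 234.6 in alpha/beta cells, a difference of at least 4.25-fold. The gamma/delta array was the high one, and the alpha/beta signal lay just under the floor. The other probe set of Idi1 read 439.6 and 419.7, a log2 ratio of 0.067, so that the call rests on 1 of 2 probe sets. With the 70th percentile as floor the log2 ratio of Idi1 was at least 1.21, and with probe sets averaged it was 1.10. The probe set with the difference has the suffix _a_at, which marks probes that recognise alternative transcripts of the gene.

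Hmgcs1, the synthase that makes HMG-CoA, stood at 5893 in gamma/delta against 6105 in alpha/beta cells. The arrays hardly differed, with a log2 ratio of -0.051. Its 4 probe sets measured on both arrays ran from -0.11 to 0.48, and the fifth, at 105.8 and 246.6, gave only a bound of at most -0.019. Pmvk, which adds the second phosphate to mevalonate, read 559.5 and 515.6, a log2 ratio of 0.12. Fdps, which makes farnesyl diphosphate, the branch point to sterols and to protein prenylation, read 351.3 and 278.9, a log2 ratio of 0.33. Both were slightly higher on the gamma/delta array, by less than the probe set SD over all genes, 0.50. The ratio of Fdps was above the SD of 0.30 over members, which leaves out bounds. Mvk, mevalonate kinase, read 401.3 and 606.7, a log2 ratio of -0.60, and its other probe set gave at least 0.43 in the opposite direction. With probe sets averaged its log2 ratio was 0.15. No direction can be given for it. Mvd, the decarboxylase that closes this stage, read 163.1 and 157.0, under the floor on both arrays.

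The enzymes from squalene to cholesterol had a median log2 ratio of 0.33, from -0.78 to 1.97. Of 9 genes, all had a ratio, and 6 were above 0, beside 52.4% of all genes. Of the 9, 1 was called higher, beside 5.82%, and 0 lower, beside 3.93%. With so few genes these counts are not far from those shares. Dhcr7, the reductase of the last step to cholesterol, read 1449 in gamma/delta against 370.2 in alpha/beta cells, a 3.91-fold difference with a log2 ratio of 1.97. Both signals were above the floor and the gamma/delta array was the high one. Dhcr7 has 1 probe set, so the difference could not be set against a second reading of the gene. With the 70th percentile as floor its log2 ratio was at least 1.70, and under the other 7 alternatives it was from 1.94 to 1.97. Lower floors, averaging of probe sets and leaving out suffixes could not change it, because it has 1 probe set, above the floor on both arrays.

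Sqle, the squalene epoxidase that is a control point of the pathway, read 399.1 in gamma/delta against 11.6 in alpha/beta cells. The alpha/beta signal was far under the floor, so the difference is at least 1.64-fold, a bound below the 2-fold call. With a floor at the 30th percentile instead, the bound was a log2 ratio of 1.62, past the call. Nsdhl, a dehydrogenase that removes methyl groups from the sterol ring, read 305.4 and 144.2, at least 1.26-fold towards gamma/delta, and a log2 ratio of 1.08 with that lower floor. Both genes have 1 probe set, and for both only the gamma/delta signal lay above the floor.

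Hsd17b7, the reductase that follows Nsdhl, read 542.6 and 368.9, a log2 ratio of 0.56. Its 3 probe sets with a ratio all stood on the gamma/delta side, the others at 0.48 and at least 0.32. Ebp, the isomerase of the sterol double bond, read 835.1 and 662.8, a log2 ratio of 0.33. Cyp51, the lanosterol demethylase, read 704.2 and 564.1, a log2 ratio of 0.32, while its other probe sets gave bounds of at least 0.12 and, in the opposite direction, at most -0.13. These 3 genes were higher on the gamma/delta array by amounts near or under the probe set SD over all genes, 0.50. The amounts were above the SD of 0.30 over members, which leaves out bounds such as those of Cyp51.

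The other 3 enzymes of this stage read lower in gamma/delta cells. Sc5d, the desaturase that acts just before Dhcr7, read 371.1 in gamma/delta against 637.1 in alpha/beta cells, a log2 ratio of -0.78, or at most -0.25 with probe sets averaged. It therefore stood opposite to Dhcr7, its neighbour in the pathway. Lss, lanosterol synthase, read 232.6 and 398.5, at least 1.64-fold towards alpha/beta. Another probe set of Lss gave at least 0.27 the other way, and with probe sets averaged the bound was likewise the other way, at least 0.029. Fdft1, squalene synthase, read 430.3 and 501.1, a log2 ratio of -0.22, while another of its probe sets read 372.9 and 39.8, at least 0.62 in the opposite direction. Lss and Fdft1 thus have no settled direction.

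**Figure D2:**
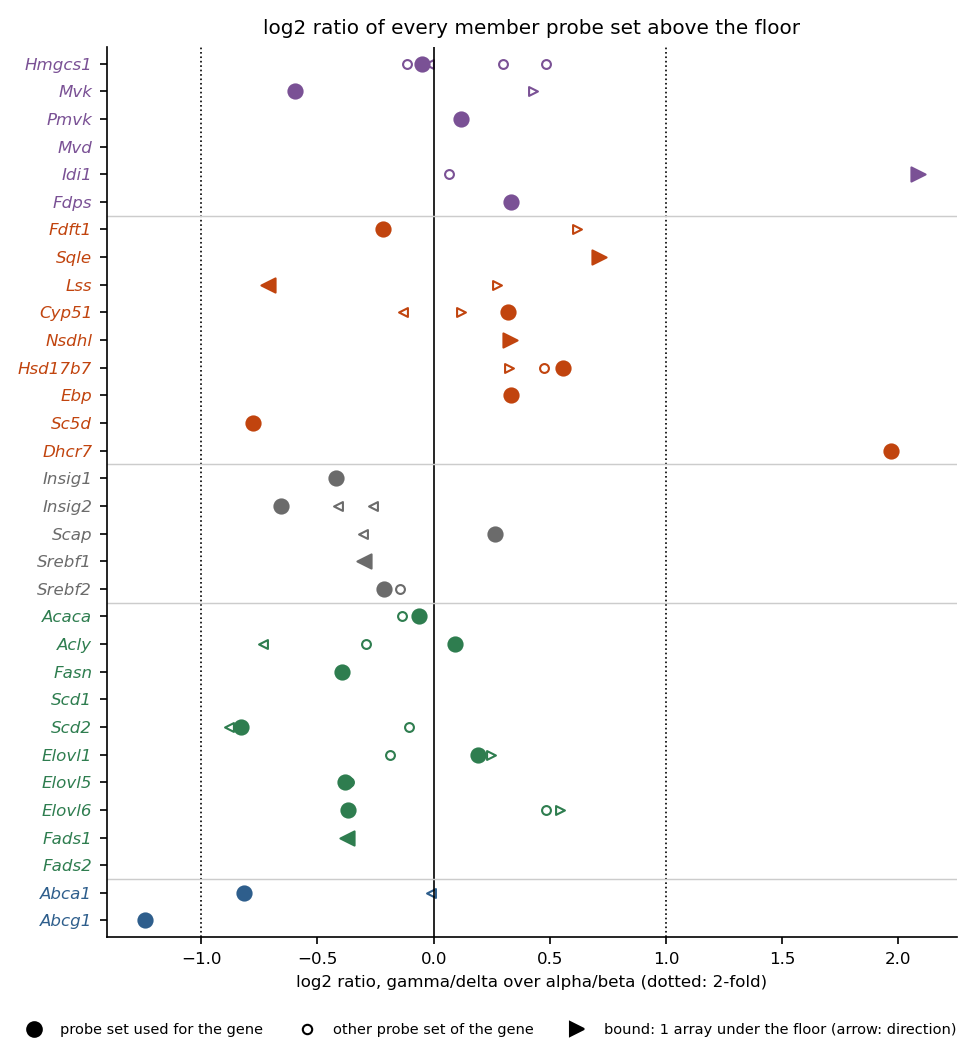
log2 ratio (gamma/delta over alpha/beta) for each of the 56 member probe sets that had a ratio, 1 line per gene; filled symbols are the probe sets used for the gene, open symbols its other probe sets, and triangles are bounds that point away from 0. Of 17 genes with 2 or more such probe sets, 9 have probe sets on both sides of 0, and the second probe set of Idi1 lies at 0.067.

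Probe sets of one gene often disagreed in sign. Of 17 members with at least 2 probe sets that had a ratio, 9 had probe sets on both sides of 0. In 6 of the others all lay below 0 (Insig2, Srebf2, Acaca, Scd2, Elovl5 and Abca1) and in 2 all above (Idi1 and Hsd17b7). Over all 56 member probe sets with a ratio 3 differed by 2-fold or more, beside 9.57% of all such probe sets, and 32 were below 0, beside 49.5%.

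Among the SREBP regulators none of 5 was called, and 4 of 5 were below 0. Their median log2 ratio was -0.30, from -0.66 to 0.26. Insig1, itself a target of SREBP, stood at 5374 in gamma/delta against 7183 in alpha/beta cells, a log2 ratio of -0.42 on its 1 probe set. Insig2, the form that depends less on SREBP, read 863.0 and 1362, a log2 ratio of -0.66. All 3 probe sets of Insig2 were lower in gamma/delta cells, the others with bounds of at most -0.41 and at most -0.26. The gamma/delta array was thus the low one for both retention proteins.

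Srebf2, whose product favours sterol genes, read 814.0 and 943.5, and its 2 probe sets gave log2 ratios of -0.21 and -0.15. Srebf1, whose product favours fatty acid genes, read 151.0 and 299.5, at least 1.23-fold towards alpha/beta. The gamma/delta signal of Srebf1 was under the floor, and the alpha/beta signal was little above it. Scap, the escort of the SREBP precursors, read 543.1 and 452.7, a log2 ratio of 0.26, and its other probe set gave at most -0.30.

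None of the fatty acid enzymes was called in either direction. Of 10 genes 8 had a ratio, with 6 of them below 0, beside 47.6% of all genes. The median log2 ratio was -0.37, from -0.83 to 0.19. Acly, which splits citrate to cytosolic acetyl-CoA, stood at 26063 in gamma/delta against 24431 in alpha/beta cells by an _x_at probe set, whose probes may also bind other transcripts, and at 4855 and 5934 by another. The log2 ratios were 0.093 and -0.29. The only other probe set with a ratio, also an _x_at one, read 23.5 and 404.8, a log2 ratio of at most -0.73, so the probe sets of Acly disagreed. Acaca, which makes malonyl-CoA, read 783.0 and 817.3, a log2 ratio of -0.062. Fasn, the synthase that builds palmitate, read 364.0 and 479.1, a log2 ratio of -0.40.

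Scd2, a desaturase that makes monounsaturated fatty acids, had the largest difference of this branch, at 1869 in gamma/delta against 3323 in alpha/beta cells, a 1.78-fold difference with a log2 ratio of -0.83. All 3 of its probe sets were lower in gamma/delta cells, the others at -0.11 and at most -0.88. Scd1, its close relative and the main form in liver and fat, read 134.4 and 116.0, under the floor on both arrays. The 2 desaturases are similar in sequence, and cross-hybridisation between them was not tested.

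Among the elongases, Elovl5, which extends polyunsaturated fatty acids, stood at 28468 in gamma/delta against 37075 in alpha/beta cells. Its 2 probe sets gave log2 ratios of -0.38 and -0.36. With quantile normalization the log2 ratio of Elovl5 was -0.14, and with loess it was -0.12. Elovl6, which extends palmitate, read 338.7 and 436.9, a log2 ratio of -0.37, while its other probe sets gave 0.48 and at least 0.55, and with all 3 averaged it was at least 0.54. Elovl1, which extends saturated very long chains, read 861.1 and 754.5, a log2 ratio of 0.19, and with probe sets averaged it was at most -0.53, in the opposite direction. Elovl5 alone among these had probe sets on 1 side. Of the desaturases of polyunsaturated fatty acids, Fads1 read 186.9 and 315.4, at least 1.30-fold towards alpha/beta, and Fads2 was below the floor in both, at 196.5 and 134.1.

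Both exporters measured among the members read lower in gamma/delta cells, and 1 of them was called. The transporter Abcg4, from the list of other LXR targets and partners, read 289.6 in gamma/delta against 243.3 in alpha/beta cells. Its log2 ratio was 0.25, in the opposite direction, with the alpha/beta signal at the floor. Abcg1, which moves cholesterol to lipoproteins and is an LXR target, read 1951 in gamma/delta against 4610 in alpha/beta cells, a 2.36-fold difference with a log2 ratio of -1.24. Both signals were well above the floor, and the alpha/beta array was the high one. Its other probe set read 29.8 and 134.9, below the floor in both preparations. With probe sets averaged the log2 ratio of Abcg1 was at most -1.70, and under the other 7 alternatives it was from -1.25 to -1.17. The other floors and leaving out suffixes could not change it, as both signals lay above every floor used. Abca1, which loads cholesterol on to apolipoproteins and is likewise an LXR target, read 1125 and 1980, a 1.76-fold difference with a log2 ratio of -0.82. Its other probe set with a ratio gave at most -0.010, and with probe sets averaged the bound was at most -0.081. The summed signals of adipocyte and stromal markers were also higher in alpha/beta cells and that of macrophage markers higher in gamma/delta cells, at the levels given above. Their part in the exporters' ratios was not tested.

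Set side by side, the 14 sterol enzymes with a ratio had a median log2 ratio of 0.32, with 9 above 0 and 2 called higher, and the 8 fatty acid enzymes one of -0.37, with 2 above 0. All genes had a median of 0.035. The medians of the branches were 0.69 apart, a difference for which this design allows no test. At the higher floor of the 70th percentile the fatty acid median was -0.081 and the medians were 0.28 apart, and the medians kept their signs under the 8 alternatives. The lists of other sterol and other fatty acid synthesis genes, described below, had medians in the opposite order. The exporters' median of -1.03 rests on 2 genes.

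**Figure D3:**
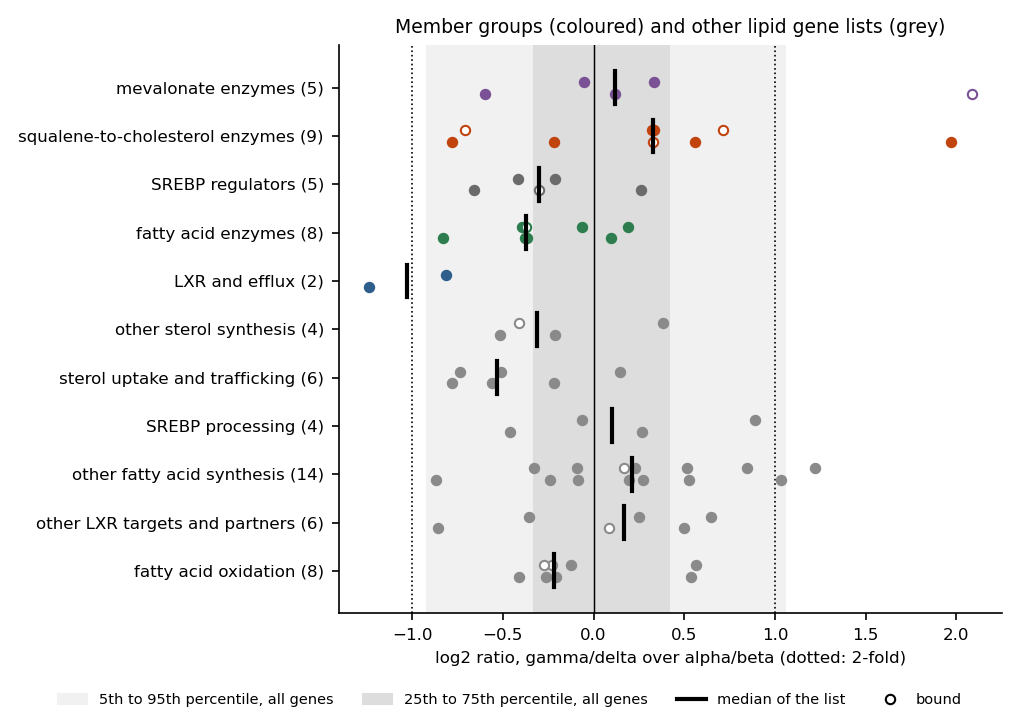
log2 ratio (gamma/delta over alpha/beta) for the members with a ratio, by role (coloured), and for the other lipid gene lists (grey), with the number of genes in parentheses; bars are medians, open circles are bounds, and the shaded bands give the spread of single genes over the whole array. The sterol enzyme groups have medians of 0.12 and 0.33, the fatty acid enzymes -0.37 and the exporters -1.03.

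Other genes of the same pathways were read from lists of 67 names, of which 57 were found and 42 had a ratio. The 10 names not found were not analysed here. Of the 42, 2 were called higher, beside 5.82% of all genes, and 0 lower, beside 3.93%, and the median log2 ratio was -0.089. The share called was thus no larger than over all genes. Acsl5, an acyl-CoA synthetase that activates long-chain fatty acids, read 3160 in gamma/delta against 1357 in alpha/beta cells, a 2.33-fold difference on 1 probe set. Tecr, the reductase that completes each round of elongation, read 756.1 and 369.5, a 2.05-fold difference, and its second probe set gave a log2 ratio of 1.76. Among the 8 fatty acid enzymes described above 0 were called higher. The list of other fatty acid synthesis genes had a median of 0.21 over 14 genes. At its lower end stood Thrsp, a lipogenic regulator, at 447.7 and 818.9 with a log2 ratio of -0.87.

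Genes that bring cholesterol into the cell and move it inside had a median log2 ratio of -0.53. Of 6 with a ratio, 5 were below 0, beside 47.6% of all genes, and 0 were called. Npc2, a carrier of cholesterol in the lysosome, read 6811 in gamma/delta against 10031 in alpha/beta cells, and its 3 probe sets with a ratio were all lower in gamma/delta cells, from -1.31 to -0.56. Its partner Npc1, the lysosomal membrane exporter, read 368.7 and 633.8, a log2 ratio of -0.78, the largest of the list. Stard4, a cytosolic sterol carrier, read 443.7 and 739.3, a log2 ratio of -0.74, with its second probe set at -0.93. The alpha/beta array was the high one for these carriers, as it was for Abca1 and Abcg1. Lipa, the lysosomal lipase, had the highest log2 ratio of the list, 0.15, while its other probe sets gave -0.36 and -0.42.

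Of the 4 other sterol synthesis genes with a ratio, 1 was above 0 and 3 below, with a median log2 ratio of -0.31. The other fatty acid synthesis genes had 0.21, so these lists stood in the opposite order to the member sterol and fatty acid enzymes. Lowest of the 4 was Ggps1, which makes the prenyl donor geranylgeranyl diphosphate, at -0.51, though another of its probe sets gave 0.53. Highest was Msmo1, the methyl sterol oxidase that acts beside Nsdhl, at 0.38, with its other probe set at most -0.21. The genes of SREBP processing had a median of 0.10 over 4 genes. Mbtps2, the protease of the second cut, read 901.2 in gamma/delta against 487.2 in alpha/beta cells, a log2 ratio of 0.89. Rnf139 had the lowest, -0.46, while its other probe set gave 0.66.

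**Figure D4:**
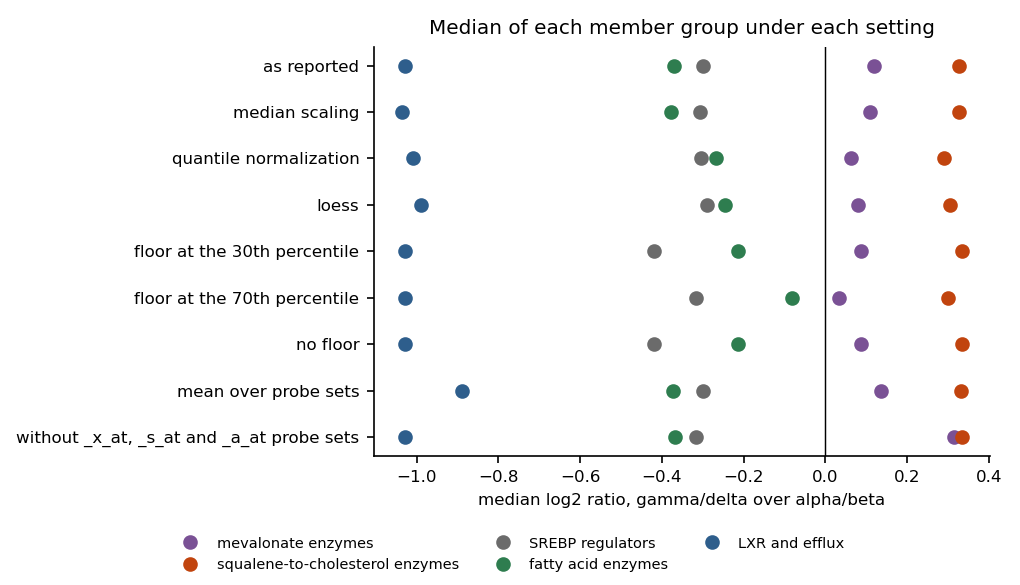
Median log2 ratio (gamma/delta over alpha/beta) for each role group (colours) with the values as reported and under the 8 alternatives. The fatty acid median moves most, from -0.37 as reported to -0.081 at the 70th percentile floor, and no group crosses 0.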

How the data were processed

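Total RNA of 1 gamma/delta and 1 CD8+ alpha/beta T cell preparation was labelled with biotin by the one-cycle method and hybridised to 1 array each, per the labels. The authors deposited linear MAS5 intensity values, which the submitters' processing notes credit to Affymetrix Expression Console 1.0. In the deposited values the mean over all probe sets, trimmed by 2% at each end, was 500.003 on both arrays. MAS5 subtracts a mismatch estimate, which makes low signals noisy. Scanner files and detection calls were not used here. Arrays have no read depth, and precision is limited by their number.

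Probe sets took symbols from the platform annotation, and those with several symbols (932), with none listed and the 64 controls name no gene. The probe set brightest on average (log2) stood for its gene. The floor was the higher of the 2 array medians without controls. No test was possible. Calls were checked on simulated data. The members and lists were chosen with earlier results of these data known. All members are named, and other pathway genes where 2-fold apart or at an end of their list; values beyond that rule were chosen after they were seen. Promoters were searched on both strands. Alternatives were median scaling, quantile normalization, loess (span 0.3), floors at the 30th and 70th percentile, no floor, probe sets averaged, and leaving out the suffixes _x_at, _s_at and _a_at. Python 3.11.15, pandas 2.3.3 and statsmodels 0.14.6 were used.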

Additional observations from a re-analysis of the deposited data

How the results depend on the processing

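No paired analysis was possible because each group has 1 sample, and for the same reason no replicate could be left out. A value was taken as moved when it shifted by more than the probe set SD (0.50), divided for medians by the square root of the number of genes, and a count or share when it shifted by more than 1.5 times. Under median scaling, quantile normalization and loess no count, no median and none of the 29 member ratios moved. With the floor at the 30th percentile 4 members were called higher in gamma/delta cells, Idi1, Sqle, Nsdhl and Dhcr7, beside 15.1% of all genes called in either direction. With no floor the same 4 were called, beside 30.3%. Towards alpha/beta, Srebf1 moved to a log2 ratio of -0.99 and Fads1 stood at -0.75 under both of these settings, and neither was called. With the floor at the 70th percentile 22 members had a ratio, the fatty acid median was -0.081, the log2 ratio of Idi1 was at least 1.21, and the difference between the sterol and fatty acid medians 0.28. With the suffixes _x_at, _s_at and _a_at left out, 1 member, Dhcr7, was called higher, because Idi1 was then read from its other probe set at 0.067. With probe sets averaged 7 member ratios moved and the log2 ratio of Idi1 was 1.10. Abcg1 was called lower under all 8 alternatives, of which the floors and the leaving out of suffixes could not change its value. No called member changed sign under any alternative that gave it a ratio. A signal under the floor on 1 array limits Idi1, Sqle, Lss, Nsdhl, Srebf1 and Fads1 to bounds.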

Other observations

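Genes that burn fatty acids, the opposite of the synthetic branch, stood much as the fatty acid enzymes did. Of 9 genes of fatty acid oxidation 8 had a ratio, 2 above 0 and 6 below, beside 47.6% of all genes below 0. None was called, and the median log2 ratio was -0.22. The fatty acid enzymes had the same counts and a median of -0.37. Cpt1a, which admits long-chain fatty acids to mitochondria, read 1838 in gamma/delta against 1242 in alpha/beta cells, a log2 ratio of 0.57, with all 3 probe sets on the gamma/delta side, up to 1.82. Hadhb, a subunit of the mitochondrial trifunctional protein, read 2718 and 3616, and its 3 probe sets were all lower in gamma/delta cells, from -0.59 to -0.19.

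Of 6 other LXR targets and partners with a ratio, 4 were above 0 and 2 below, and none was called. Rxra and Rxrb, the retinoid X receptors that pair with LXR, had log2 ratios of 0.65 and 0.50. Nr1h3, which encodes LXRalpha, read 258.2 in gamma/delta against 25.1 in alpha/beta cells, so that its bound was a log2 ratio of at least 0.085. Mylip, an LXR target that degrades lipoprotein receptors, read 797.9 and 1023, a log2 ratio of -0.36. The coactivator Ncoa1 read 985.4 and 1789, a log2 ratio of -0.86. The 3 genes of oxysterol formation, Ch25h, Cyp27a1 and Cyp7b1, had signals of at most 195.9 on the probe sets chosen, and no ratio.

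Acss2, which makes acetyl-CoA from acetate, read 1722 in gamma/delta against 958.4 in alpha/beta cells, a log2 ratio of 0.85, and a second probe set gave at least 1.45 in the same direction. Cell cycle markers did not share 1 direction: the log2 ratios were 0.26 for Mki67 and 0.44 for Top2a, Cdk1 had -0.37, and Ccna2 had -1.34 with its other probe set at least 0.19.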
